A study of Mus musculus with 4 samples.

Results

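The genes described here are 7 mouse genes that are known for resistance to poly (ADP-ribose) polymerase (PARP) inhibitors: the drug efflux pump genes Abcb1a, Abcb1b and Abcg2, and the DNA end-protection genes Trp53bp1, Rif1, Mad2l2 and Paxip1. They were chosen by gene symbol, for what is known of their proteins and not for their values in these samples. Earlier results of these data were known when they were chosen. Each symbol matched 1 of the 56748 genes of the deposited table, and all 7 passed the filter on low counts that left 15167 genes for testing.

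Bulk RNA sequencing compared lungs carrying metastases of 4T1, a mouse triple-negative breast cancer (TNBC) cell line, between saline-treated mice (2 libraries) and mice given cmLumiOpto together with PARPi (2 libraries). Per the study's methods, female BALB/cJ mice with a working immune system received luciferase-labelled 4T1-FLuc cells through the tail vein in both groups, and per the labels the tumour cells were taken after 3 weeks of treatment. cmLumiOpto is a gene construct that places a light-gated channel in mitochondria together with a luciferase that supplies the light. It was delivered in AAV-carrying exosomes bearing a CD276 antibody and given with ViviRen, the luciferase substrate, while PARPi was olaparib. The comparison therefore asks how these genes stood after the combination, and with the libraries analysed here the part of olaparib and that of cmLumiOpto cannot be told apart. The mice carried tumours of 1 cell line, and a tail-vein injection seeds the lung directly. The labels name the control PBS and describe the material as tumour cells from lung, whereas the study's methods name saline and lung tissue with metastases. The total was 16086720 and 15263375 counts in saline and 16755228 and 16509603 after cmLumiOpto/PARPi, so that 3 counts, the smallest level taken as detected, lay between 0.173 and 0.204 CPM (read counts scaled for library size by TMM). The labels do not say that the libraries came from separate mice, and p-values measure only the spread between these samples.

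PARP inhibitors such as olaparib trap PARP on DNA, and the damage that follows in replicating cells is repaired by homologous recombination, on which cells without BRCA1 or BRCA2 fail. Abcb1a and Abcb1b both encode P-glycoprotein, the ATP-driven pump that carries olaparib and many other drugs out of cells, for which people have a single gene. Abcg2 encodes BCRP, a smaller pump with partly different substrates. In the lung and other organs, pumps of this kind are also made by endothelial and epithelial cells. 53BP1, the product of Trp53bp1, binds chromatin beside a double-strand break and recruits RIF1 and PTIP, the product of Paxip1. RIF1 brings in shieldin together with REV7, the product of Mad2l2, and the assembly keeps the broken end from being resected. In BRCA1-deficient cells, loss of 53BP1, RIF1 or REV7 restores recombination and is a known route to PARP inhibitor resistance, and loss of PTIP is known to protect stalled replication forks, so the change tied to resistance is more of a pump and less of an end-protection factor.

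The Abcb1 genes are near copies of each other, which bears on how their reads could be counted. Abcb1a (ENSMUSG00000040584, chromosome 5, 8710077 to 8798575, plus strand) lies 49571 bases before Abcb1b (ENSMUSG00000028970, chromosome 5, 8848147 to 8916315, plus strand), and Abcb4, a phospholipid transporter gene of the same family, follows after a further 27401 bases. Positions are those of the deposited table, and the labels name the build mm39. In the GENCODE M21 transcripts the coding sequences of Abcb1a and Abcb1b were both 3831 bases long, and 3363 of 3822 aligned bases (88%) were identical. The longest identical run was 338 bases. Its first 60 bases and the 30 bases before it are printed here because a read that falls inside the run has no base that tells the genes apart. Capitals mark the bases that differ, and the windows start at coding base 1327 in Abcb1a and 1336 in Abcb1b, counted from the start codon.
Abcb1a: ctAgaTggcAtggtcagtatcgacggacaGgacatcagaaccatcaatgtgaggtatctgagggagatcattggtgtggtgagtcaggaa
Abcb1b: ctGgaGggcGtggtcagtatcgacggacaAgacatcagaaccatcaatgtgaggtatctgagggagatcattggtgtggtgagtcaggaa

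A second window, of 90 bases from coding base 1883 in Abcb1a and 1892 in Abcb1b, shows the opposite case. It held 29 differences, again in capitals, so that a read from it can be placed.
Abcb1a: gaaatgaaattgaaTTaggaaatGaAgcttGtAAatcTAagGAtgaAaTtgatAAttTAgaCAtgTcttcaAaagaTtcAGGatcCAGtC
Abcb1b: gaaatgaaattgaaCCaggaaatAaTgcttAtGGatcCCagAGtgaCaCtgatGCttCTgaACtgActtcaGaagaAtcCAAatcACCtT

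Of the 100-base windows of the Abcb1a transcript, 7.49% occurred exactly in the Abcb1b transcript, and of the 150-base windows 4.41%. The length of the reads and the treatment of reads that match both genes are not given in the sources used here, so the split between the genes is uncertain and their summed counts are given beside it. Of the 7 genes, Abcb1b had the largest estimated difference with all 4 libraries and no loess correction for gene length and mean level. Abcb1a was larger with the correction or without treated 1. The upstream sequence of Abcb1b is shown because of its estimate with all 4 libraries. The 250 bases before its RefSeq start (GRCm38.p6, chr5:8797897-8798146, plus strand) held the CCAAT box at 2 places, as CCAAT and as its reverse complement ATTGG, and the GC box GGGCGG at 1 place, all in capitals.
Abcb1b upstream: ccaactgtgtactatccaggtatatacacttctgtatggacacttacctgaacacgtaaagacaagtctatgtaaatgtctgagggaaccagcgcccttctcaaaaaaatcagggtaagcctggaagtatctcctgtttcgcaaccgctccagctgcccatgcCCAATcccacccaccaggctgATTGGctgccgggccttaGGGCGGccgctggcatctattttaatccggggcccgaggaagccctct

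Such matches are common: of 32851 RefSeq promoters of 300 bases, 37.4% held CCAAT or ATTGG and 35.7% held GGGCGG or its reverse complement CCGCCC. The motifs were searched on both strands, and no printed match overlaps another. A match is a description of the letters and not of a bound site.

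None of the 7 genes differed between cmLumiOpto/PARPi and saline at an adjusted p under 0.05 by edgeR's quasi-likelihood test, adjusted by the Benjamini-Hochberg method over all genes tested, and neither did any other gene (0% of 15167). The smallest adjusted p over all genes was 0.138. At an unadjusted p under 0.05 there were 0 of the 7, against 21.2% of all genes, while DESeq2 called 1011 of all genes past the adjusted threshold and 0 of the 7. Of the 7 genes, 0 had both treated libraries above both saline libraries (27.4% of all genes did) and 2 had both below (27.8% of all genes), namely Abcb1b and Trp53bp1. The estimated log2 fold change was above 0 in 2 of the 7 (Abcg2 and Mad2l2) and below 0 in 5, among them Rif1, whose sign depended on the scaling. Its median over the 7 was -0.31, beside 0.02 over all genes. With 2 libraries against 2, an exact permutation test of 1 gene could not give a two-sided p below 0.333.

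**Figure D1:**
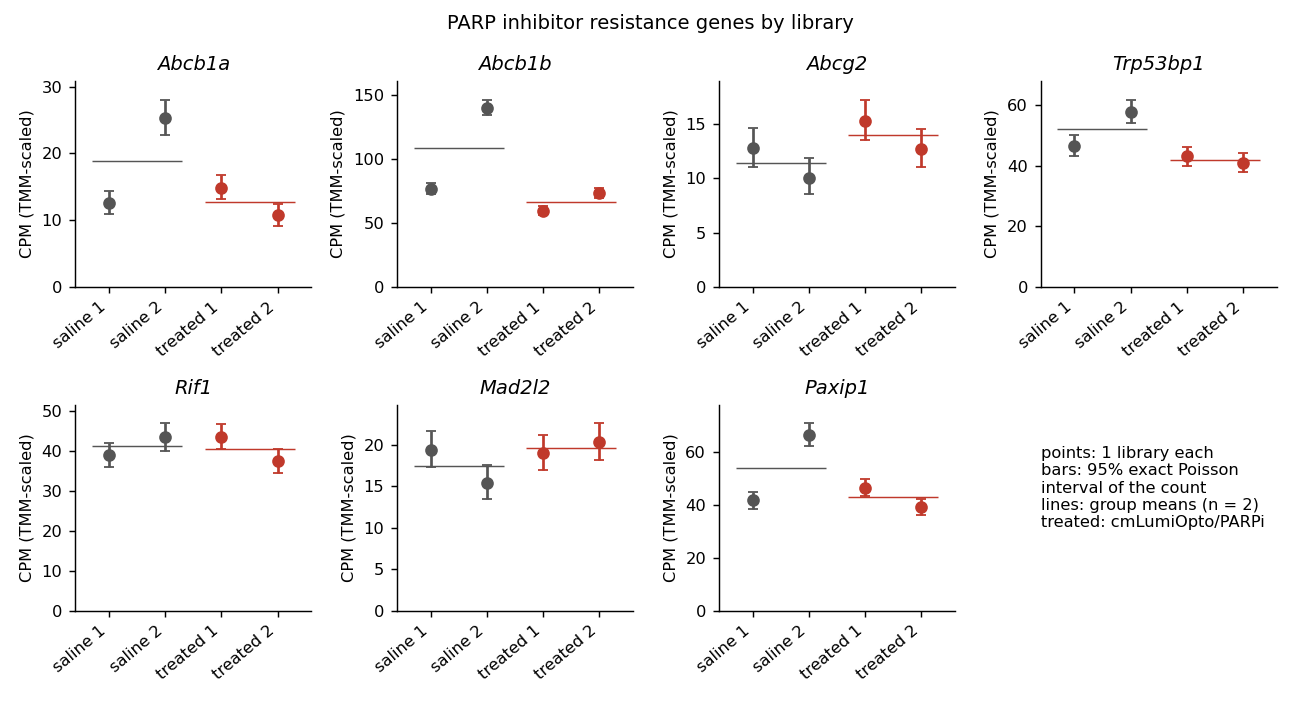
Level of each of the 7 genes in CPM (TMM-scaled, linear axes from 0) in the 2 saline and 2 cmLumiOpto/PARPi (treated) libraries, with points for libraries, bars for 95% exact Poisson intervals of the count and lines for group means (n = 2). Saline 2 stands highest for Abcb1a, Abcb1b, Trp53bp1 and Paxip1 and lowest for Abcg2 and Mad2l2.

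The P-glycoprotein genes lay lower after treatment by their group means, but their saline libraries were far apart. Abcb1b measured 76.5 and 139.8 CPM in saline and 59.2 and 73.0 CPM after cmLumiOpto/PARPi. Both treated values were below both saline values, although treated 2 was close to saline 1. The group means were 108 ± 44.8 and 66.1 ± 9.76 CPM (SD, n = 2), a log2 fold change of -0.71 (SE 0.30, 95% interval -1.44 to 0.02) with an adjusted p of 0.245 from edgeR's quasi-likelihood test. Of all genes tested, 81.7% had a smaller absolute log2 fold change. Without saline 2 the log2 fold change was -0.23, and without saline 1 it was -1.10, with an adjusted p of 0.0698 from the same edgeR test. With no filter on low counts, where 2000 of 25435 genes passed the threshold, Abcb1b was among them (adjusted p = 0.00324, edgeR).

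Abcb1a was the weaker of the pair, at 12.5 and 25.4 CPM in saline and 14.9 and 10.7 CPM after treatment. Saline 1 fell between the treated libraries, so the groups overlapped, and saline 2 stood above the other three. The means were 18.9 ± 9.06 and 12.8 ± 2.93 CPM (SD, n = 2) and the log2 fold change was -0.57 (SE 0.38, 95% interval -1.51 to 0.37, adjusted p = 0.425, edgeR). Without saline 2 it was 0.01, so the lower treated mean of Abcb1a rested on that library.

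The counts of the pair came to 1420 and 2424 together in saline and to 1287 and 1392 after treatment. If each shared read was counted once, the sum does not depend on how such reads were split between the genes. Whether they were counted or discarded is not given in the sources used here. Tested in place of the separate genes, the sum had a log2 fold change of -0.69 (SE 0.29, adjusted p = 0.250, edgeR's quasi-likelihood test). Per kilobase of gene length, Abcb1b was 4.18 and 3.78 times the level of Abcb1a in saline and 2.74 and 4.68 times after treatment. The saline ratios lay between the treated ratios, and Abcb1b was the more abundant copy in all 4 libraries. Genes that overlap the pair on either strand had at most 8 counts in any library.

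Abcg2, the BCRP gene (ENSMUSG00000029802, chromosome 6, 58561508 to 58672661, plus strand), was the pump whose group mean lay higher after treatment. It measured 12.79 and 10.09 CPM in saline and 15.31 and 12.76 CPM after treatment. Treated 2 was level with saline 1, so the groups overlapped. The means were 11.4 ± 1.92 and 14.0 ± 1.81 CPM (SD, n = 2), a log2 fold change of 0.29 (SE 0.25, 95% interval -0.31 to 0.90, adjusted p = 0.520, edgeR). It kept this sign when each library was left out in turn, at values from 0.12 to 0.46.

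Among the end-protection genes, Trp53bp1 (ENSMUSG00000043909, chromosome 2, 121023762 to 121101888, minus strand), which encodes the scaffold 53BP1, measured 46.5 and 57.8 CPM in saline and 43.1 and 41.0 CPM after treatment. Both treated libraries were below both saline libraries, and treated 1 and saline 1 had overlapping 95% Poisson intervals (40.03 to 46.3 and 43.2 to 50 CPM). The means were 52.2 ± 7.96 and 42.0 ± 1.48 CPM (SD, n = 2). The log2 fold change was -0.31 (SE 0.16, 95% interval -0.72 to 0.09, adjusted p = 0.326, edgeR). At its 3′ end 5490 bases of its span overlap Tubgcp4, a gamma-tubulin complex gene on the opposite strand with 231 to 279 counts per library, and whether the counting used strand is not given in the sources used here.

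Rif1 (ENSMUSG00000036202, chromosome 2, 51962844 to 52012395, plus strand) encodes a protein that is recruited by phosphorylated 53BP1. Rif1 had the smallest difference of the 7 with all 4 libraries, though not after the loess correction or without saline 2. It measured 38.8 and 43.3 CPM in saline and 43.4 and 37.4 CPM after treatment. The saline values lay within the treated range. The log2 fold change was -0.02 (SE 0.16), with a 95% interval of -0.42 to 0.37 (adjusted p = 0.954, edgeR). Its sign changed with scaling by library totals and when saline 2 or treated 2 was left out.

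Mad2l2 (ENSMUSG00000029003, chromosome 4, 148214841 to 148230156, plus strand) encodes REV7, which serves both shieldin and the translesion polymerase zeta. It measured 19.4 and 15.4 CPM in saline and 19.0 and 20.3 CPM after treatment. Saline 1 lay between the treated libraries and saline 2 was the lowest of the 4. The log2 fold change was 0.17 (SE 0.21, 95% interval -0.34 to 0.69, adjusted p = 0.660, edgeR), and without saline 2 it was 0.0033.

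Paxip1 (ENSMUSG00000002221, chromosome 5, 27945078 to 27996689, minus strand) encodes PTIP, which acts with 53BP1 at breaks and also sits in a histone H3 lysine methyltransferase complex. It measured 41.8 and 66.6 CPM in saline and 46.6 and 39.3 CPM after treatment. Saline 1 again lay between the treated libraries and saline 2 above all of them. The means were 54.2 ± 17.6 and 42.9 ± 5.15 CPM (SD, n = 2), with a log2 fold change of -0.34 (SE 0.25, 95% interval -0.95 to 0.28, adjusted p = 0.468, edgeR). Without saline 2 the value was 0.02.

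The direction rested on saline 2 in several of these genes. It was the highest of the 4 libraries for 4 of the 7 genes and the lowest for 2, so it stood at an end in 6 of 7, against 59.4% of all genes tested. Saline 1 stood at an end in 0 of 7 (39.8% of all genes), treated 1 in 3 of 7 (62.3%) and treated 2 in 5 of 7 (38.6%), being the lowest library in 4 genes and the highest in 1. In all 7 genes the 2 saline libraries differed more on the log2 scale than the group means did, in Trp53bp1 by a very small margin, and the same was true of 42.1% of all genes tested. The ratio of saline 2 to saline 1 was 2.02 for Abcb1a, 1.83 for Abcb1b, 1.60 for Paxip1, 1.24 for Trp53bp1, 1.12 for Rif1, 0.795 for Mad2l2 and 0.788 for Abcg2.

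**Figure D2:**
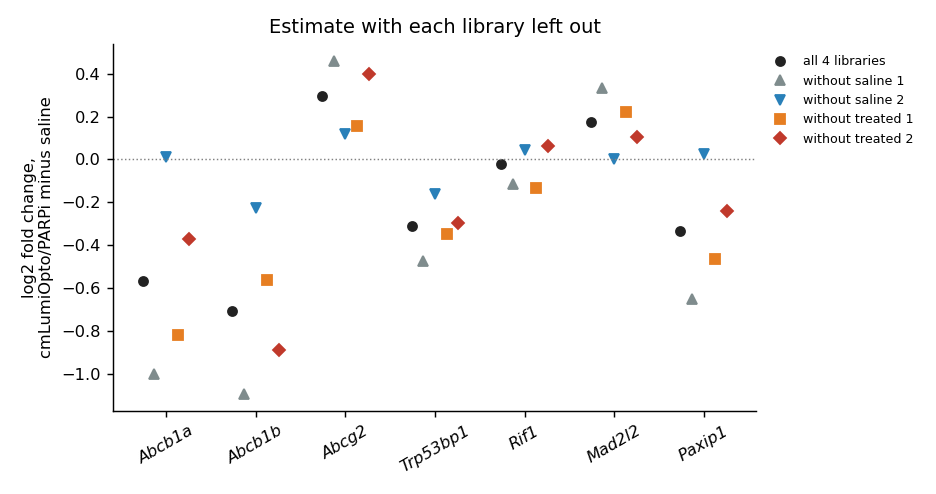
Log2 fold change of each gene (cmLumiOpto/PARPi minus saline, vertical axis) in all 4 libraries (circles) and with 1 library left out (triangles, squares and diamonds). Without saline 2, Abcb1a and Paxip1 move to 0.01 and 0.02, Mad2l2 to 0.0033 and Abcb1b to -0.23.

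The levels of the genes can be compared with each other per kilobase of gene length. Over the 4 libraries the mean level was 10.9 CPM per kilobase for Abcb1b, 7.06 for Mad2l2, 4.73 for Paxip1, 3.88 for Rif1, 3.33 for Trp53bp1, 2.90 for Abcb1a and 1.56 for Abcg2. These levels stood between the 25.4 percentile (Abcg2) and the 68.6 percentile (Abcb1b) of all genes tested. Abcb1b was the highest and Abcg2 the lowest of the 7 in every library, and the order of the 7 was the same in saline 1 and both treated libraries. In saline 2, Paxip1 (6.49 CPM per kilobase) stood above Mad2l2 (5.87), and Abcb1a (4.63) stood above Rif1 (4.12) and Trp53bp1 (4.08). Neighbours in the order overlapped across the libraries in each case except Abcb1a and Abcg2, whose ranges were 1.95 to 4.63 and 1.24 to 1.88 CPM per kilobase.

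A trend with gene length ran through the whole comparison and touches these genes, since 5 of the 7 were in the longest of 5 equal groups of genes tested. Genes in the shortest group had a median log2 fold change of 0.31 and those in the longest group (7273 to 123179 bases) of -0.27, and 53.5% of the latter had both treated values below both saline values. Trp53bp1 (14164 bases), Rif1 (10504 bases), Paxip1 (10271 bases), Abcg2 (8153 bases) and Abcb1b (7990 bases) belonged to that longest group. The log2 fold changes of Trp53bp1 and Paxip1 (-0.31 and -0.34) were close to its median. That of Abcb1b (-0.71) stood 0.44 below that median, and those of Rif1 and Abcg2 stood 0.25 and 0.56 above it. Abcb1a (5480 bases) belonged to the next longest group and stood 0.47 below the median of that group, which was -0.09. Mad2l2, at 2622 bases, had 0.17, where the median of its own length group was 0.15. A loess correction was fitted on gene length and on the mean log2 CPM of each gene together, so it is not for length alone. After it the log2 fold change was -0.62 for Abcb1a, -0.42 for Abcb1b and 0.35 for Abcg2. The value was 0.05 for Trp53bp1, 0.25 for Rif1, -0.0068 for Mad2l2 and -0.05 for Paxip1. The signs of Trp53bp1, Rif1 and Mad2l2 changed with this correction, and the part of length in the results was not tested.

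**Figure D3:**
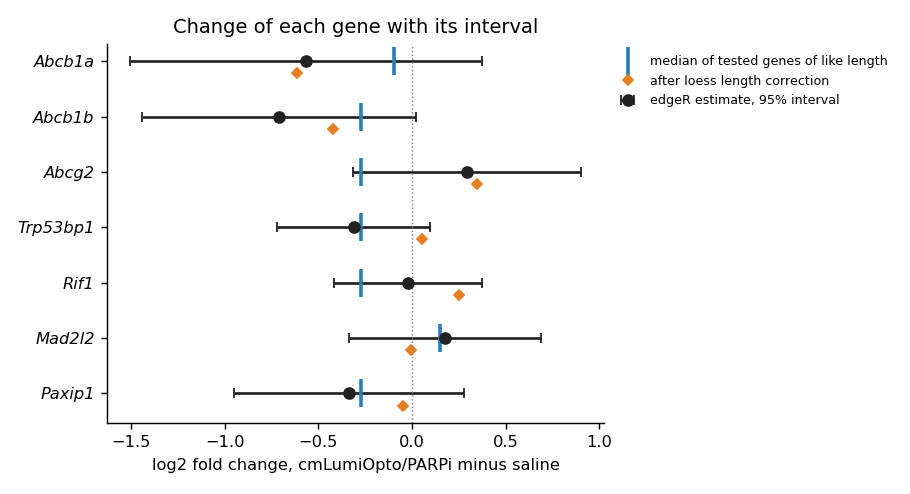
Log2 fold change of each gene (cmLumiOpto/PARPi minus saline, horizontal axis) as the edgeR estimate with its 95% interval (black), and the median of tested genes in the same group of gene length (blue bar). Orange marks the value after the loess correction for length and mean level. All 7 intervals include 0, and the estimate of Trp53bp1 sits close to the median of genes of like length.

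Markers of other cells also differed between the libraries. The summed level of 5 alveolar type 2 markers (Sftpc, Sftpa1, Sftpb, Lamp3, Napsa) was 1441 and 296 CPM in saline and 7675 and 2686 CPM after treatment, and that of 5 airway markers 1104 and 80.8 against 5412 and 2875 CPM. All 10 of these genes had both treated libraries above both saline libraries, as did 27.4% of all genes. The 6 fibroblast markers summed to 5087 and 3504 CPM in saline and 1634 and 1841 CPM after treatment, and all 6 were below, against 27.8% of all genes. The 7 tumour epithelial markers did not separate the groups (2915 and 3277 against 2582 and 3733 CPM), and Krt5 was at 0 in saline 2. Krt8, a keratin of 4T1 cells that lung epithelium also makes, was at 998 to 1640 CPM, a level that does not tell the labelled tumour cells from lung cells. The 8 endothelial markers, of cells that make both kinds of pump, summed to 542 and 433 CPM in saline and 796 and 437 CPM after treatment, with 2 of the 8 above (27.4% of all genes) and 0 below (27.8%). Saline 2 had the lowest sum of the 4 libraries for endothelial, alveolar, airway, neutrophil, T and NK cell and erythroid markers. Its endothelial sum was close to that of treated 2 (433 and 437 CPM). The sum of saline 2 was highest for proliferation markers, by a small margin, and for macrophage markers (647 and 668 CPM in saline, 505 and 479 CPM after treatment). The macrophage sum rested on Mrc1 (213 and 396 CPM in saline). Cd68 (75.8 CPM) and Csf1r (159 CPM) were lowest in saline 2, and Adgre1 and Marco stood in between. Of the proliferation markers, Mki67 and Ccnb1 were highest there, Birc5 (49.7 CPM) lowest, and Top2a and Cdk1 in between. For the fibroblast and tumour epithelial sums, saline 2 stood in between. In the same library Abcg2 was lowest and Abcb1a and Abcb1b were highest. The 5 proliferation markers, which follow dividing cells as do many repair genes, summed to 1012 and 1019 CPM in saline and 714 and 922 CPM after treatment. Of the 5, 2 were below (Mki67 and Top2a, 27.8% of all genes), 1 above (Birc5, 27.4%) and 2 overlapped. Mki67 (10061 bases) and Top2a (9013 bases) belonged to the longest group, where 53.5% of all genes lay below. The part of these cell types in the results was not tested. In bulk RNA, fewer cells of a type and less RNA per cell cannot be told apart.

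The wider set of genes around the pumps and the protected end was read in 7 further lists of 63 genes, of which 56 were tested. None passed the adjusted threshold (0 of 56, as for all genes), and at an unadjusted p under 0.05 there were 12, 5 higher and 7 lower, against 21.2% of all genes. In 14 genes both treated values exceeded both saline values (27.4% of all genes), in 21 they were below (27.8% of all genes), and in 21 the groups overlapped. The median log2 fold change was -0.20, beside 0.02 over all genes.

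Among other ABC drug transporters, 6 of 10 were tested, 1 lay above (27.4% of all genes), 1 below (27.8%) and 4 overlapped (median -0.07). Abcc3, a pump for glucuronide conjugates, measured 47.9 and 39.3 CPM in saline and 68.4 and 54.6 CPM after treatment, a log2 fold change of 0.50 (SE 0.18, unadjusted p = 0.0362, adjusted p = 0.210, edgeR). Abcc4, a pump for cyclic nucleotides and other organic anions, went the other way at 54.9 and 74.8 against 49.8 and 34.0 CPM (-0.63, adjusted p = 0.227, edgeR). Abcc1, the multidrug resistance protein MRP1, overlapped between the groups at 83.5 and 122 against 46.9 and 84.4 CPM (-0.65, adjusted p = 0.302, edgeR). Abcb4, the neighbour of the Abcb1 pair, had only 3 to 15 counts per library, and Abcb11, Abcc2, Abcc6 and Abcc12 had at most 6 counts in any library and were not tested.

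In the list of shieldin, its partners and the CST and polymerase alpha fill-in machinery that acts at the protected end, all 13 genes were tested, and 6 lay above (27.4% of all genes), 2 below (27.8%) and 5 overlapped (median 0.15). Dynll1, a dynein light chain that limits resection by binding MRE11, had the smallest p of the 7 further lists. It measured 175 and 164 CPM in saline and 319 and 267 CPM after treatment (log2 fold change 0.79, SE 0.15, unadjusted p = 0.00228, adjusted p = 0.138, edgeR). Its groups did not overlap. Prim1, the primase subunit, lay higher at 25.8 and 29.3 against 35.8 and 38.5 CPM (0.43, adjusted p = 0.216, edgeR), while Pola1, the catalytic subunit of the same complex, lay lower at 43.3 and 57.5 against 29.7 and 34.2 CPM (-0.66, adjusted p = 0.166, edgeR). Shld2, the single-strand binding subunit of shieldin, was at 6.27 and 7.56 CPM in saline and 3.17 and 4.75 CPM after treatment (-0.80, SE 0.35, adjusted p = 0.260, edgeR).

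Of the genes that govern the recruitment of 53BP1 to a break, 9 of 10 were tested, 3 lay above (27.4% of all genes), 5 below (27.8%) and 1 overlapped (median -0.25). Kdm4a, a histone demethylase that competes with 53BP1 for methylated histone H4, measured 87.9 and 97.2 CPM in saline and 56.0 and 73.8 CPM after treatment (-0.51, unadjusted p = 0.0271, adjusted p = 0.193, edgeR). Mdc1, which binds the phosphorylated histone H2AX, was at 40.1 and 45.2 against 34.7 and 31.4 CPM (-0.37, adjusted p = 0.249, edgeR). On the other side were Nudt16l1, whose product TIRR masks the chromatin-binding face of 53BP1, at 22.1 and 17.9 against 26.4 and 30.3 CPM (0.50, adjusted p = 0.227, edgeR), and the ubiquitin ligase gene Rnf8 (0.52, adjusted p = 0.310, edgeR). L3mbtl1 had 1 count in all libraries together and was not tested.

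The genes of end resection, the process that 53BP1 and its partners hold back, were mostly on the lower side: of 10 tested, 7 lay below (27.8% of all genes did), 1 above (27.4%) and 2 overlapped (median -0.34). In the 2 groups of longest genes, to which all of these except Nbn belong, 36.4% and 53.5% of all genes lay below. Rad50, of the MRE11 nuclease complex, measured 62.7 and 63.0 CPM in saline and 43.1 and 49.0 CPM after treatment (-0.45, unadjusted p = 0.0206, adjusted p = 0.178, edgeR). Helb, a helicase that restrains resection, lay on the same side at 21.95 and 19.97 against 13.5 and 14.6 CPM (-0.58, adjusted p = 0.189, edgeR). Dna2, the nuclease of long-range resection, was the 1 gene above, at 6.02 and 6.34 against 9.61 and 10.05 CPM (0.67, adjusted p = 0.222, edgeR).

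The remaining lists follow the other duties of REV7 and PTIP and the further routes to resistance. Of the 4 polymerase zeta genes, which work with REV7 in translesion synthesis, 1 lay above (27.4% of all genes) and 3 overlapped (median -0.23), with log2 fold changes of 0.23 for Pold3, -0.43 for Rev1 and -0.22 for Pold2. Of the 5 PTIP partners in the methyltransferase complex, 4 were tested, 2 lay below (27.8% of all genes, and 53.5% in the longest group, to which these 4 belong) and 2 overlapped (median -0.39), and Pagr1a was listed at 0 in every library. Ncoa6, a coactivator subunit of that complex, measured 67.0 and 80.5 CPM in saline and 42.5 and 48.1 CPM after treatment (-0.70, SE 0.16, unadjusted p = 0.00506, adjusted p = 0.138, edgeR), and Kmt2c, a methyltransferase of the complex, overlapped (-0.46, adjusted p = 0.335, edgeR). Among 10 tested genes of fork protection, PARP and PARG, 2 lay above (27.4% of all genes), 4 below (27.8%) and 4 overlapped (median -0.02). Chd4, a nucleosome remodeller, was at 449 and 403 against 272 and 321 CPM (-0.52, adjusted p = 0.170, edgeR), and Mus81, a structure-specific nuclease, at 12.1 and 8.11 against 17.3 and 14.9 CPM (0.67, adjusted p = 0.239, edgeR). The fork remodeller gene Hltf (0.21) and the Schlafen gene Slfn9 (-0.29) differed less.

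**Figure D4:**
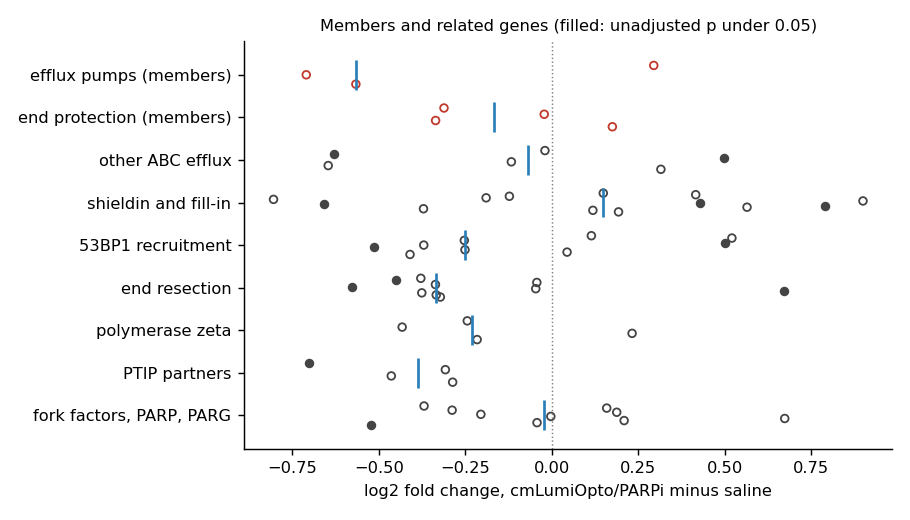
Log2 fold change (cmLumiOpto/PARPi minus saline, horizontal axis) of the 7 genes (red) and of the 56 tested genes of the 7 related lists (dark), with 1 circle per gene, filled where the unadjusted p was under 0.05, and a blue bar for the median of each row. None of the 7 is filled. The end resection row has 9 of 10 genes below 0, beside 7286 of all 15167 genes tested. All genes of that row except Nbn are in the 2 groups of longest genes, whose median log2 fold changes were -0.09 and -0.27.

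The 7 genes did not share 1 profile across the libraries. Likeness was measured as the root mean square difference of log2 CPM, centred on each gene's mean over the 4 libraries, where a smaller value is a closer match. Within the 7 the closest pairs were Abcg2 with Mad2l2 (0.138) and Trp53bp1 with Paxip1 (0.142), the farthest was Abcb1b with Abcg2 (0.669), and Abcb1a with Abcb1b stood at 0.287. Over all genes tested, the closest matches were Deptor (0.0181), C920009B18Rik and Adamts6 for Abcb1b, and 5930430L01Rik (0.0301), Wnt2b and Nr4a1 for Abcb1a. Those of Abcg2 were Lrrc70 (0.00588), 3000002C10Rik and Rundc1. For the end-protection genes they were Zfp91 (0.0086), Cpne2 and Pcnt for Trp53bp1, Ldah (0.0166), Ing5 and Steep1 for Rif1, Peds1 (0.00797), Elp6 and Ebp for Mad2l2, and A930004J17Rik (0.0329), Dll1 and Resf1 for Paxip1. With 4 libraries and 15167 genes, close matches of this kind are a description only.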

How the data were processed

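Total RNA of 4 libraries was sequenced on the Illumina HiSeq platform. The authors mapped reads with HISAT2 and deposited raw read counts per gene, not normalized, with gene positions and lengths. The submitters' processing notes also list TopHat2 and the build mm39, whereas the methods name GRCm38. For 0 of the 7 genes was the position the same as in GENCODE M21 (GRCm38), and for all 7 the span was, so positions are given as in the table and none were converted. The read counter and its strand setting are not given in the sources used here. Labels and methods also differ on the RNA kit.

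From the counts, genes passing edgeR's filterByExpr (minimum count 10) were tested in R 4.3.3 with edgeR 4.0.16 (TMM, glmQLFit with the version's defaults, glmQLFTest, no covariate), with Benjamini-Hochberg adjustment and a threshold of 0.05. CPM used TMM-scaled library sizes and log2 CPM a prior count of 2. Exact Poisson intervals (95%) and the floor of 3 counts cover counting error only, and replicates differed by more than that (chi-square over degrees of freedom 24.1 in saline and 41.1 in treated libraries). Sequences were read from GENCODE M21 transcripts, aligned with Biopython 1.88, and from RefSeq promoters, in which 6 of the 7 genes were found. The scripts were tested on simulated counts.

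All 7 genes are named. From each related list up to 2 genes per direction with the smallest unadjusted p were taken, and for each of the 7 the 3 genes of most similar profile. Genes and lists were chosen with earlier results of these data known. Alternatives were DESeq2 1.42.0, other normalizations, no filter on low counts, glmQLFit without its legacy option, the replicate block and leaving out each library. A loess correction on gene length and mean log2 CPM (loess function of R, span 0.5) was another.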

Additional observations from a re-analysis of the deposited data

How the results depend on the processing

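Of 79 alternative values of the 7 log2 fold changes (the summed Abcb1 pair included), 69 kept their direction and side of the threshold, 8 changed sign and 2 newly passed it. The count of genes past an adjusted p of 0.05 was 0 with edgeR's quasi-likelihood test, 1011 with DESeq2, 2000 with no filter on low counts, 1822 with the replicate block and 0 to 31 when each library was left out. Of the 7 genes, 1 passed with no filter and 1 with the replicate block, both times Abcb1b, at a log2 fold change of -0.72 (adjusted p = 0.00324, edgeR) and -0.66 (adjusted p = 0.0423, edgeR). The signs changed with the loess correction for length and mean level for Trp53bp1 (0.053), Rif1 (0.25) and Mad2l2 (-0.0068). With scaling by library totals the sign changed for Rif1 (0.047). With each library left out in turn, Abcb1a ranged from -1.003 to 0.011, Paxip1 from -0.65 to 0.024 and Rif1 from -0.13 to 0.061, and the sign changed without saline 2 in each of these genes and also without treated 2 in Rif1. The cause of these changes was not tested.

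Equal replicate numbers are only shared numbers in the labels. Deviations of equally numbered libraries from their group means correlated across genes (Pearson's r = 0.357, Spearman's rho = 0.298), and genes are not independent replicates. The replicate block moved no other of the 7 genes across the threshold. With a left-out library, the lone sample of that group is assumed to vary like the other group. With 2 libraries a group, a missing call does not show that a gene did not change. The lowest count of the 7 genes in any library was 148, for Abcg2.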
